A study of Mus musculus with 20 samples.

Results

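Whole hearts from mouse embryos at E13.5 were compared between 10 embryos that carried the duplication Dp(16Lipi-Zbtb21)1TybEmcf and 10 WT embryos, which together are all 20 hearts of the study. The duplication side pooled 5 hearts labelled Dp1Tyb and 5 labelled Dp1TybDyrk1a+/+/-, so that it held every heart with the extra stretch of chromosome 16 from Lipi to Zbtb21 whatever the number of working Dyrk1a copies. Dp1Tyb hearts carry 3 copies of the genes in that stretch. In Dp1TybDyrk1a+/+/- hearts 1 of the 3 Dyrk1a alleles is the null allele Dyrk1atm1Mla, brought onto the duplicated chromosome by a crossover found in a single pup, so this strain descends from a single recombinant. All mice were on a C57BL/6J background and the WT embryos were littermates. The labels do not say which hearts shared a litter. Each heart was a separate embryo, and the mRNA of the whole organ was sequenced, so fewer cells of a type and less RNA per cell cannot be told apart in any value below. The genes reported here are those outside the stretch, which the duplication does not copy.

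Dp1Tyb mice model the trisomy of Down syndrome, because the duplicated stretch holds the mouse counterparts of many genes of human chromosome 21. At E13.5 the septa and valves of the heart are still being completed from the endocardial cushions, in which endocardial cells, themselves a kind of endothelium, give rise to mesenchyme. Several receptor subunits for interferons are encoded within the stretch. Many of the genes that interferon receptors switch on lie elsewhere in the genome, but some, such as Mx2, lie within it and are not reported here.

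The labels were first checked on the genes in 3 copies. Among the stretch's 95 tested genes, 73 were called higher in duplication hearts than in WT hearts and none was called lower, with a median log2 difference of 0.31 (1.24-fold), where a call is a Benjamini-Hochberg adjusted p under 0.05 in a limma fit over all 15304 tested genes. From its own count test of Dp1Tyb hearts, the paper reported a larger rise of these genes, near the ratio of gene copies. The deposited values may therefore understate fold changes. Log2 values of Dyrk1a, the dual-specificity kinase gene, ran from 11.28 to 11.43 in WT hearts with a median of 11.36. They were 11.67, 11.65, 11.66, 11.71 and 11.75 in Dp1Tyb hearts, and 11.70, 11.85, 11.78, 11.75 and 11.74 in Dp1TybDyrk1a+/+/- hearts. Both duplication genotypes were above every WT heart, and a single value per gene does not show whether a transcript comes from the null allele. Xist, the RNA of the inactive X chromosome, was high (12.98 to 13.64) in 3 of 10 WT, 4 of 5 Dp1Tyb and 1 of 5 Dp1TybDyrk1a+/+/- hearts and at most 8.13 in the others, so embryo sex was unevenly spread over the genotypes, and X-linked genes are in a single copy in the 12 hearts with low Xist. Of 16 marker lists for cell types of the heart, neighboring organs and sex, none had a called member: the summed endothelial and endocardial markers were 14500 to 16400 normalized counts in WT hearts, 14800 to 16800 in Dp1Tyb hearts and 15400 to 16800 in Dp1TybDyrk1a+/+/- hearts, cardiomyocyte markers 257000 to 375000 over all hearts, and the macrophage markers 1020 to 1200. Skeletal muscle markers stayed between 16.4 and 18 normalized counts, with Myod1, Myf5 and Pax7 under the filter for testing. A pair of hearts stood apart from the rest. The median distance of a heart to the others over all tested genes was 12.6 to 16.2 log2 units for 18 hearts, 20.6 for WT replicate 6 and 29.7 for Dp1TybDyrk1a+/+/- replicate 2, and the main results are given with and without them.

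Outside the stretch, 103 of 15072 tested genes differed between duplication and WT hearts (0.683%). The increases outnumbered the decreases: 75 genes rose (0.498%) and 28 fell (0.186%). At an unadjusted p under 0.05 the split was 692 higher against 631 lower, and 45.8% of all tested genes had a difference above 0, with a median of -0.00294. The changes were small on the scale of the deposited values. The median log2 difference was 0.143 among the genes that rose and -0.119 among those that fell, and only 17 of the 103 were larger than 0.2 in size. Calls were found on 20 chromosomes, and 100 of the called genes were protein coding. Leaving out Dp1TybDyrk1a+/+/- replicate 2 raised the count to 268 (182 higher, 86 lower), with all 103 genes among them. Leaving out WT replicate 6 as well gave 330 calls (222 higher, 108 lower), 101 of them in common. Weighting the hearts by their own spread (limma array weights) gave 459, and with single hearts left out the lowest count, 69, came without WT replicate 3.

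**Figure D1:**
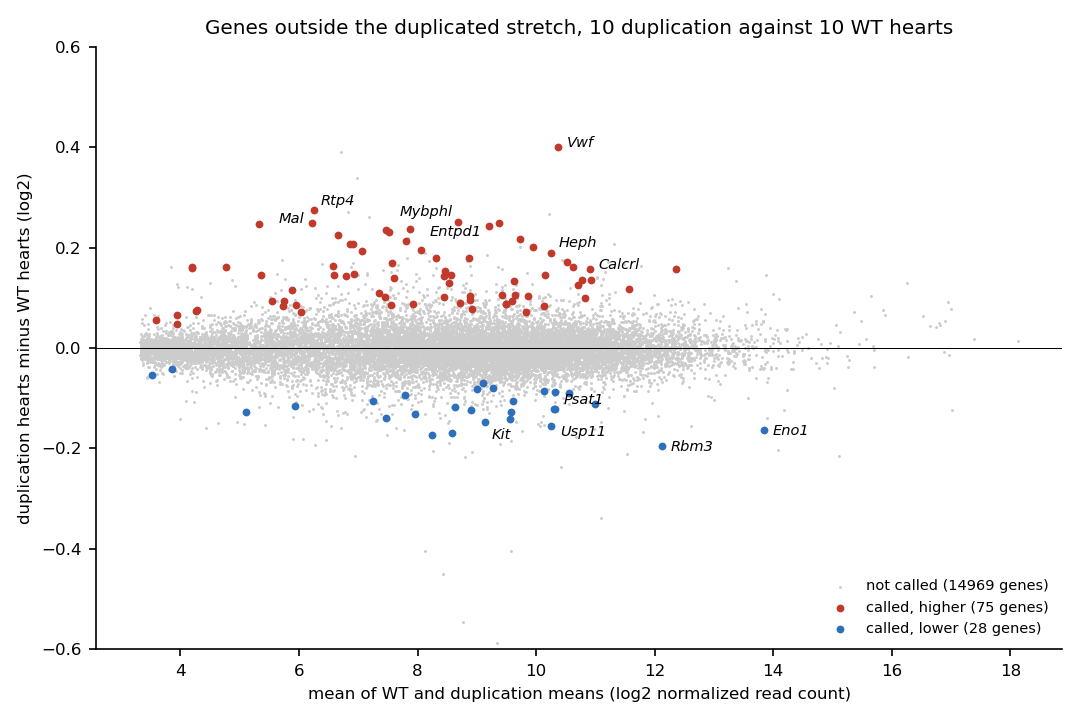
Difference between 10 duplication and 10 WT hearts (vertical axis, log2) against the mean level (horizontal axis, log2 normalized read count) for each tested gene outside the stretch. The 75 genes called higher are red, the 28 called lower are blue and the genes not called are grey. Called differences were as small as 0.047 and -0.0421, and some genes not called lay further out, such as Fabp4 (-0.22) and Bst2 (0.26). Gm7334, called higher at 1.15, and 1 gene that was not called lie beyond the axis, which ends at 0.6.

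In 14 genes (0.0929% of those tested) every duplication heart lay beyond every WT heart, and 13 of these were called. The 10 called higher were Entpd1, Gm7334, Mal, Heph, Vwf, Ggta1, Calcrl, Thbs4, Mybphl and Rtp4, and the 3 called lower were Rbm3, Usp11 and Pcdhgb4. The remaining gene was G3bp2, a stress granule RNA-binding protein (0.06, adjusted p = 0.0785).

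Vwf, Entpd1, Calcrl and Mmrn2, genes of the blood vessel and endocardial lining, rose in duplication hearts. Vwf encodes von Willebrand factor, the endothelial and platelet glycoprotein that tethers platelets, and lies at chr6:125552948-125686679 (GRCm38). Its log2 value ran from 9.92 to 10.26 in WT hearts with a median of 10.21. In Dp1Tyb hearts it was 10.73, 10.53, 10.54, 10.70 and 10.75, and in Dp1TybDyrk1a+/+/- hearts 10.60, 10.46, 10.45, 10.52 and 10.47. All 10 duplication hearts exceeded all WT hearts, and the log2 difference was 0.40 ± 0.05 (SE, 1.32-fold, adjusted p = 3.77e-06). Entpd1, which encodes the cell surface enzyme CD39 that breaks down extracellular ATP, had the smallest p outside the stretch. Its WT hearts ran from 9.05 to 9.24 with a median of 9.06, and the highest of them was WT replicate 6. The Dp1Tyb hearts had 9.36, 9.26, 9.36, 9.30 and 9.41, and the Dp1TybDyrk1a+/+/- hearts 9.35, 9.35, 9.28, 9.32 and 9.29. The groups did not overlap, and the difference was 0.24 ± 0.02 (adjusted p = 3.99e-07). Calcrl, the receptor for adrenomedullin and the calcitonin gene-related peptide, ran from 10.72 to 10.88 in WT hearts and from 10.93 to 11.11 in duplication hearts, again without overlap (0.16 ± 0.02, adjusted p = 0.000385). Mmrn2, an endothelial matrix glycoprotein, rose by 0.17 ± 0.03 (adjusted p = 0.000525), with 9 of 10 duplication hearts above every WT heart.

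These 4 were the members called among 48 tested endothelial and endocardial genes, and none of the list was called lower. The list was chosen with earlier results of these data known, so its share of calls is a description only. Over all genes tested outside the stretch 0.498% were called higher and 0.186% lower. The list as a whole did not stand far from other genes, with a median log2 difference of 0.0153 against -0.00294 over all tested genes with 28 members above 0 and 20 below. The pan-endothelial genes Pecam1 (0.05, adjusted p = 0.604), Cdh5 (0.06, adjusted p = 0.772) and Tie1 (0.06, adjusted p = 0.884) were not called. Nor were the most negative members, the fatty acid carrier gene Fabp4 (-0.22, adjusted p = 0.333), the apelin receptor gene Aplnr (-0.13, adjusted p = 0.335), its ligand gene Apln (-0.12, adjusted p = 0.340) and the transcription factor gene Sox17 (-0.08, adjusted p = 0.176). Without Dp1TybDyrk1a+/+/- replicate 2, Tek and Plvap were called higher too. Further called genes with a known place in endothelium, picked out after their values were seen, were the surface lectin gene Clec14a (0.13), the leukocyte adhesion receptor gene Icam1 (0.14), the X-linked kinase gene Bmx (0.10) and Ggta1 (0.13), which encodes the galactosyltransferase that makes the alpha-gal epitope.

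**Figure D2:**
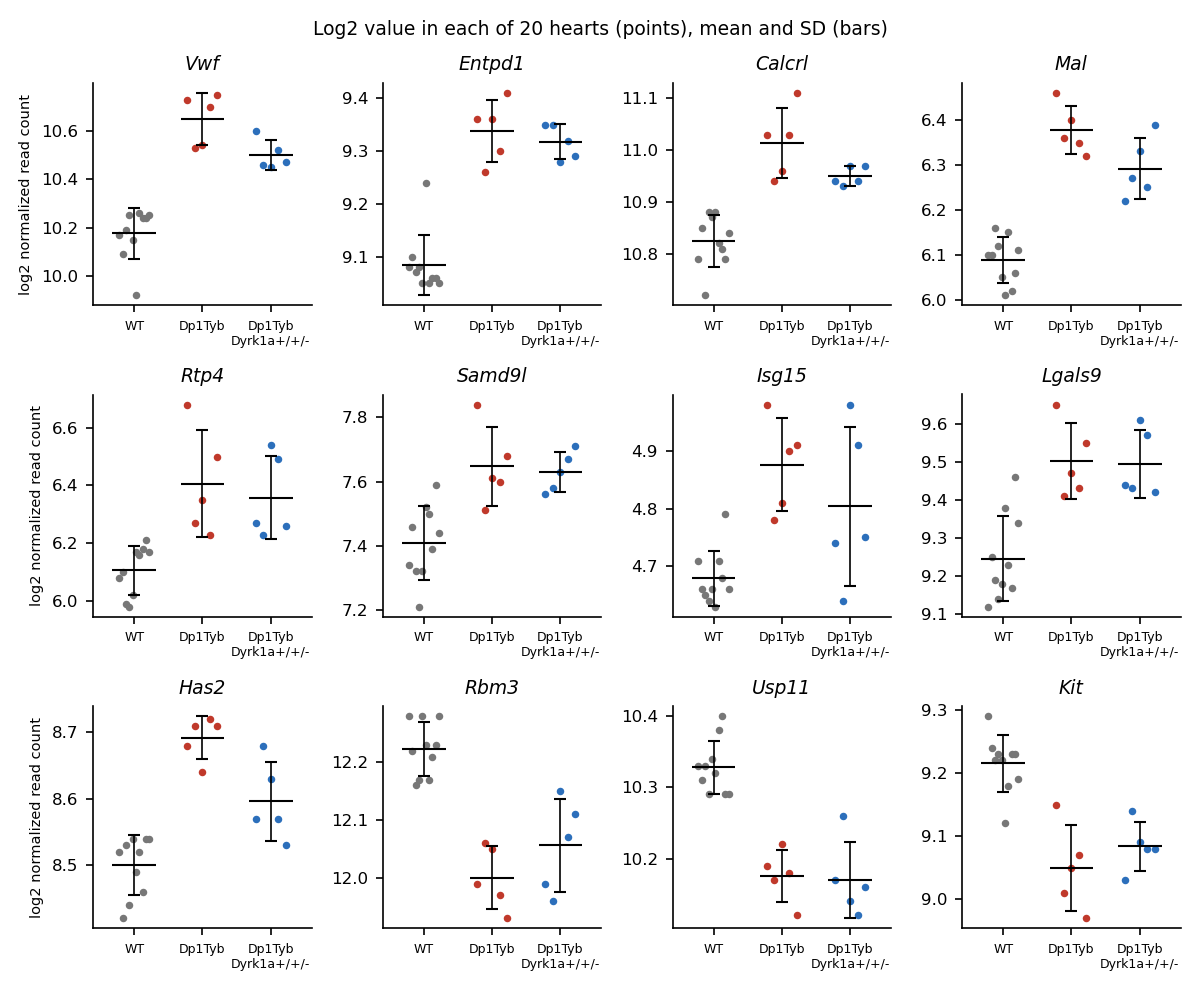
Log2 normalized read count (vertical axes, each with its own range) of 12 called genes in each of the 20 hearts (points: 10 WT in grey, 5 Dp1Tyb in red, 5 Dp1TybDyrk1a+/+/- in blue), with the group mean and SD as bars. Vwf, Entpd1, Calcrl, Mal and Rtp4 in all 10 duplication hearts lie above all WT hearts, and Rbm3 and Usp11 below; Samd9l, Isg15, Lgals9, Has2 and Kit overlap.

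Among the gene lists, the interferon-stimulated genes held the most calls. The lists were chosen with earlier results of these data known, so their shares of calls are descriptions and not independent support. Of 43 tested members, 7 rose (Rtp4, Ifi44, Samd9l, Lgals3bp, Isg15 and Rigi among them) and none fell. Over all genes tested outside the stretch 0.498% rose and 0.186% fell. A difference above 0 was found in 41 members, against 45.8% of all tested genes, and the median was 0.0874 against -0.00294. At an unadjusted p under 0.05, 29 members were higher and 1, Ifit2, was lower (-0.10, adjusted p = 0.0539). Over all 15072 genes tested outside the stretch, 692 were higher and 631 lower at that mark. The members just short of the threshold included Bst2, which tethers budding virus to the cell (0.26, adjusted p = 0.0503), and the RNA sensor gene Ifih1 (0.12, adjusted p = 0.0503). Rtp4, an interferon-induced chaperone of G protein-coupled receptors, was the called member whose groups did not overlap. Its WT hearts ran from 5.98 to 6.21 with a median of 6.13. It was 6.68, 6.27, 6.35, 6.23 and 6.50 in Dp1Tyb hearts and 6.27, 6.23, 6.54, 6.49 and 6.26 in Dp1TybDyrk1a+/+/- hearts. All 10 duplication hearts were above all WT hearts, and the difference was 0.27 ± 0.05 (1.21-fold, adjusted p = 0.00485). The gene lies on chromosome 16 but before the stretch (chr16:23520219-23614222, GRCm38), and it overlaps Masp1 on the other strand. Isg15, a ubiquitin-like modifier, rose by 0.16 ± 0.04 (adjusted p = 0.0214), Rigi, a sensor of viral RNA, by 0.15 ± 0.04 (adjusted p = 0.0284), and Ifi44 by 0.25 ± 0.05 (adjusted p = 0.0184).

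**Figure D3:**
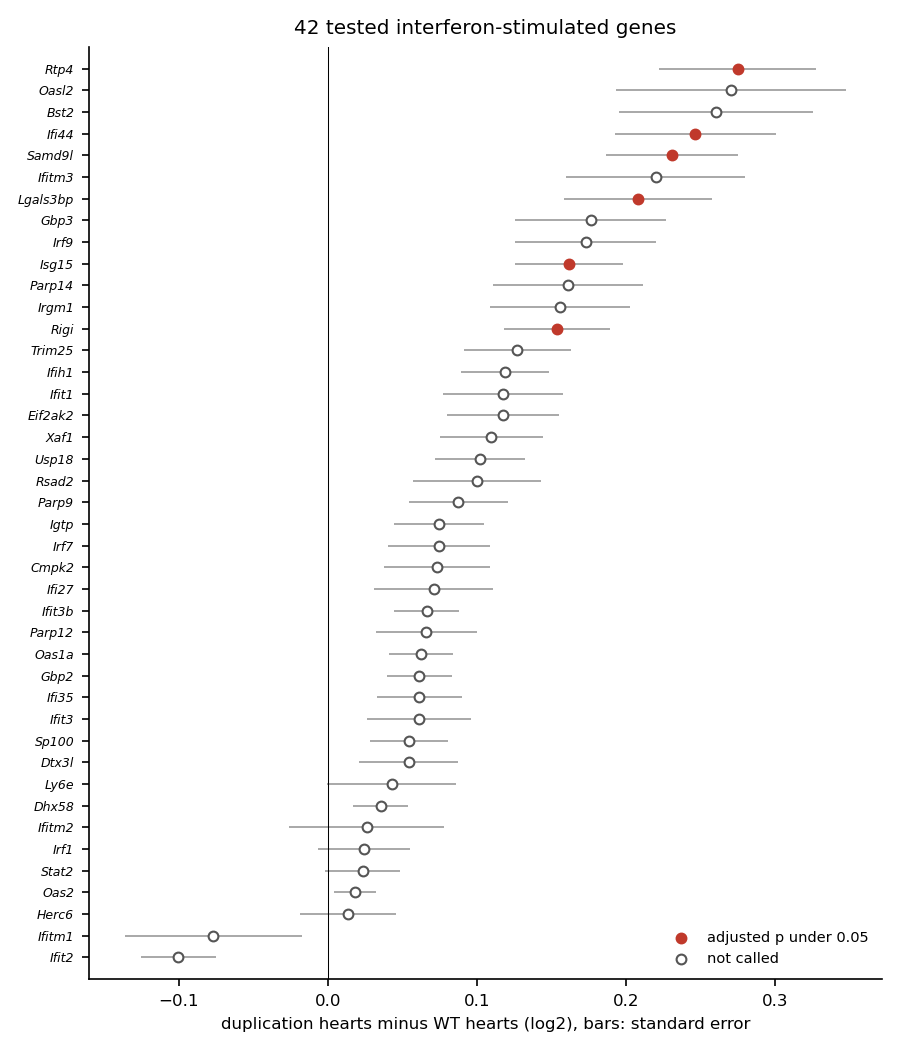
Difference between duplication and WT hearts (horizontal axis, log2, with standard errors) for 42 of the 43 tested interferon-stimulated genes (vertical axis, ordered by difference). The 6 called genes shown are filled in red; 40 of 42 points lie to the right of 0, and Ifitm1 and Ifit2 lie to the left.

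The level of the interferon list differed between hearts within a genotype. The mean deviation of its 43 members from the WT mean was 0.258, 0.059, 0.088, 0.062 and 0.113 log2 units in Dp1Tyb hearts and 0.052, 0.037, 0.199, 0.129 and 0.068 in Dp1TybDyrk1a+/+/- hearts. In WT hearts it ran from -0.058 to 0.132, so WT replicate 9 was above 8 of the 10 duplication hearts on this summary. Dp1Tyb replicate 1 held the highest value of 6 of the 7 called members, and without it 6 of the 7 were still called, Lgals3bp being lost. Leaving out Dp1TybDyrk1a+/+/- replicate 2, the heart with the lowest deviation on the duplication side, gave 14 members called higher and 1, Ifit2, called lower. With sequencing lane as a covariate, 4 were called, Rtp4, Ifi44 and Samd9l among them, and with Xist as a covariate 6.

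Guanylate-binding proteins are GTPases that interferon-gamma induces and that attack the vacuoles of intracellular pathogens. They lay mostly outside the interferon list and were looked at as a family after Gbp6 was found among the largest increases. All 8 tested members had a difference above 0, and 3 were called: Gbp6 (0.23 ± 0.04, adjusted p = 0.00534), Gbp7 (0.19 ± 0.04, adjusted p = 0.0165) and Gbp9 (0.18 ± 0.04, adjusted p = 0.0223). Of all genes tested outside the stretch 45.8% had a difference above 0 and 0.498% were called higher. The transcripts of Gbp6 and Gbp10 are nearly identical in sequence and Gbp9 overlaps Gbp4 and Gbp8, so reads could be split among these genes. Lgals9, encoding the immune-regulatory lectin galectin-9, rose by 0.25 ± 0.04 (adjusted p = 0.000993), with WT hearts from 9.12 to 9.46 and duplication hearts from 9.41 to 9.65. Il33, which encodes an alarmin cytokine of barrier and endothelial cells, rose by 0.17 (adjusted p = 0.0286). Antigen presentation genes had no call among 13 tested (median 0.0236, 10 above 0), and of 22 macrophage genes none was called (median -0.0139, 6 above 0).

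The promoters of the called genes were searched for the interferon-stimulated response element, spelled TTTCNNTTTC and counted on both strands, in windows from 250 bases before to 50 bases after the RefSeq start (GRCm38.p6). The element was found in 3.99% of all 27025 genes with a promoter and in 397 of 11033 genes tested outside the stretch (3.6%). It was found in 20 of 45 interferon and antigen presentation genes (44.4%). Among the called genes it was found in 5 of 56 that rose (8.93%: Gbp7, Isg15, Lgals9, Prpf40b and Shisa5) and in 1 of 22 that fell (4.55%: Spp1). Of the 7 called interferon-stimulated genes 4 had a promoter in the table, and Isg15 alone of them held the element. The windows of Isg15, Lgals9 and Gbp7 are shown because they belong to immune genes that rose and hold the element in single and in repeated form, with every match in capitals.
Isg15, chr4:156200769-156201068, minus strand: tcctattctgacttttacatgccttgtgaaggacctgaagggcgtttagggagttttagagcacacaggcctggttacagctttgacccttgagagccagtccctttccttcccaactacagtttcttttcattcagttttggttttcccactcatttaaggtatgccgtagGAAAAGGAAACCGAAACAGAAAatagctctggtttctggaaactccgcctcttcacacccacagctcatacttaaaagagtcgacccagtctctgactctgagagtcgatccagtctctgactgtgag
Lgals9, chr11:78984875-78985174, minus strand: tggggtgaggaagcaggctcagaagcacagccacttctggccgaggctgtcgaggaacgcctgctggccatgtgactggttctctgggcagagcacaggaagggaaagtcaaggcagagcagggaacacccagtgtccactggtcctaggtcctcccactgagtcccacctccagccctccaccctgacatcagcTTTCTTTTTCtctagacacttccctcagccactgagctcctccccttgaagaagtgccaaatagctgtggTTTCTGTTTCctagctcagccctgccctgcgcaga
Gbp7, chr3:142530086-142530385, plus strand: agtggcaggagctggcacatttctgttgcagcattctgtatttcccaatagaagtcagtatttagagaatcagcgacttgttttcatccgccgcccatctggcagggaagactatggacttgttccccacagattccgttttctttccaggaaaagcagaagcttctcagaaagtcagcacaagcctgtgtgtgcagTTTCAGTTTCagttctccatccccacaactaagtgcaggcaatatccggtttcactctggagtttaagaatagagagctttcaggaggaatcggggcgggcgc
Isg15 has 3 overlapping matches in a single block, read here on the opposite strand, Lgals9 has 2 separate matches and Gbp7 has 1. A match is a description of the letters and was not tested as a binding site.

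The largest difference outside the stretch was that of Gm7334, a processed pseudogene on chromosome 17. Its values were 7.29 to 8.41 in WT hearts (median 8.0), 8.99, 8.81, 8.90, 9.01 and 9.14 in Dp1Tyb hearts and 9.22, 9.35, 9.34, 9.32 and 8.85 in Dp1TybDyrk1a+/+/- hearts. The difference was 1.15 ± 0.12 (2.23-fold, adjusted p = 1.28e-06) and the groups did not overlap. The whole Gm7334 transcript of 756 bases is identical (100%) to bases 148 to 903 of a Btg3 transcript of 3872 bases. Btg3 is an antiproliferative gene inside the duplicated region, and reads within the shared bases cannot be told apart. The first 120 bases, at chr17:51005716-51005835 of GRCm39 on the plus strand, stand for both genes.
Gm7334 and Btg3: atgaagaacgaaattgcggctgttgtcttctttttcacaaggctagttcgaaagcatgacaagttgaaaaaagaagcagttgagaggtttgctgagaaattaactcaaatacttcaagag
The values listed for Btg3, which such reads can raise or lower, were 8.96 to 9.46 in WT hearts and 8.58 to 9.34 in duplication hearts (-0.25 ± 0.10, adjusted p = 0.380). The deposited values of both genes were turned back from the log2 scale and added in each heart, a sum chosen after they were seen. WT hearts ran from 792 to 903 and duplication hearts from 1020 to 1110 without overlap. The mean was 852 ± 35.9 (SD, n = 10) against 1060 ± 40.0 (SD, n = 10), a ratio of 1.24. Whether reads of Btg3 account for the rise of Gm7334 was not tested. Gm7334 is 1 of the 75 genes counted as higher outside the stretch.

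Genes of the endocardial cushions and of muscle were found among the other increases. Has2, the hyaluronan synthase that fills the cushions with matrix, ran from 8.42 to 8.54 in WT hearts, and was 8.68, 8.71, 8.64, 8.72 and 8.71 in Dp1Tyb hearts and 8.57, 8.68, 8.63, 8.57 and 8.53 in Dp1TybDyrk1a+/+/- hearts. It rose by 0.14 ± 0.03 (adjusted p = 0.00205), with the lowest duplication heart inside the WT range. Tgfbr3, the co-receptor betaglycan that presents TGF-beta and BMP ligands, rose by 0.13 ± 0.03 (adjusted p = 0.0130). They were the 2 called among 38 TGF-beta, BMP and cushion genes (median 0.0166, 25 above 0), against 0.683% called of all genes tested outside the stretch. Mybphl, a myosin-binding protein gene of atrial and conduction muscle, ran from 8.26 to 8.73 in WT hearts and from 8.75 to 8.87 in duplication hearts (0.25 ± 0.05, adjusted p = 0.00363). The sarcomere list had no call among 51 tested (median -0.00352). Thbs4, a matricellular thrombospondin, rose by 0.16 ± 0.03 (adjusted p = 0.00173) and Prickle2, a planar cell polarity gene, by 0.10 ± 0.02 (adjusted p = 0.00181), the single call among 38 Wnt and planar cell polarity genes.

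Several of the clearest increases belonged to none of these systems. Mal, a small membrane proteolipid of myelinating glia and epithelia, was 6.01 to 6.16 in WT hearts, 6.46, 6.36, 6.40, 6.35 and 6.32 in Dp1Tyb hearts and 6.22, 6.27, 6.33, 6.25 and 6.39 in Dp1TybDyrk1a+/+/- hearts, without overlap (0.25 ± 0.03, adjusted p = 2.78e-06). Ache, the enzyme that hydrolyzes acetylcholine, rose by 0.21 ± 0.03 (adjusted p = 0.000204), and its neighbor Ufsp1 rose by 0.12 (adjusted p = 0.00363). Mal and Ache were the calls among 31 neuron, glia and neural crest genes, whose median was -0.0144, against 0.683% called of all genes tested outside the stretch. The summed neural markers were 305 to 366 normalized counts over all hearts. Heph, the X-linked ferroxidase that helps iron leave cells, ran from 10.12 to 10.21 in WT hearts and from 10.27 to 10.43 in duplication hearts (0.19 ± 0.02, adjusted p = 2.94e-06). Ppp1r17, a protein phosphatase inhibitor gene, rose by 0.24 ± 0.03 (adjusted p = 0.000103) and Gm11966 by 0.24 ± 0.05 (adjusted p = 0.00539). Ccng1, a cyclin G gene induced by p53, rose by 0.16 ± 0.03 (adjusted p = 0.0160). It was the single call among 24 p53 targets, where 0.683% of all genes tested outside the stretch were called.

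The decreases were led by Rbm3, the X-linked cold-inducible RNA-binding protein. Its log2 values were 12.16 to 12.28 in WT hearts, 11.99, 12.06, 12.05, 11.97 and 11.93 in Dp1Tyb hearts and 11.99, 11.96, 12.15, 12.07 and 12.11 in Dp1TybDyrk1a+/+/- hearts. No duplication heart reached the lowest WT heart, and Rbm3 fell by 0.19 ± 0.03 (1.14-fold lower, adjusted p = 6.89e-05). Usp11, an X-linked deubiquitinase, ran from 10.29 to 10.40 in WT hearts and from 10.12 to 10.26 in duplication hearts, again without overlap (-0.16 ± 0.02, adjusted p = 1.71e-05). With Xist as a covariate both were still called. The Rbm3 transcript is 98.5% identical to the pseudogene Rbm3-ps over 469 bases, so reads could be split there. Kit, the receptor for stem cell factor on mast, germ and progenitor cells, was 9.12 to 9.29 in WT hearts, 9.15, 9.01, 9.05, 9.07 and 8.97 in Dp1Tyb hearts and 9.03, 9.14, 9.09, 9.08 and 9.08 in Dp1TybDyrk1a+/+/- hearts. It fell by 0.15 ± 0.02 (adjusted p = 0.000612), with 8 of 10 duplication hearts below every WT heart.

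Among the lists of metabolic and amino acid stress genes, Eno1 and Psat1 were the calls, where 0.683% of all genes tested outside the stretch were called. Eno1, the glycolytic enzyme enolase, ran from 13.84 to 14.04 in WT hearts and from 13.55 to 13.87 in duplication hearts (-0.16 ± 0.04, adjusted p = 0.0179), and its transcript is 99.3% identical to that of Eno1b, so reads could be split between them. It was the single call among 57 glycolysis, TCA and fatty acid oxidation genes, of which 42 were below 0 (median -0.0193). Without Dp1TybDyrk1a+/+/- replicate 2, 31 of the 57 were above 0 and the median was 0.00328, so the sign of the list rests on that heart. Psat1, an enzyme of serine synthesis, fell by 0.12 ± 0.02 (adjusted p = 0.00713) as the single call among 24 unfolded protein and amino acid stress genes. The nuclear genes of the respiratory chain had no call among 78 tested, with a median of -5.52e-05 and 38 above 0, and without the same heart 60 were above 0 (median 0.0233).

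The remaining named decreases were less stable. Smim36 (-0.17), Pcdh1 and Pcdhgb4, both protocadherin adhesion genes (-0.17 and -0.13), Ip6k2, an inositol phosphate kinase gene (-0.14), Wscd2 (-0.14), Tmem44 (-0.13), Spp1, which encodes the matrix phosphoprotein osteopontin (-0.13), and Aldh9a1, an aldehyde dehydrogenase gene (-0.12), had adjusted p from 0.0136 to 0.0466. Of these, Ip6k2 was called under all 31 alternative settings, and the others were lost in 3 (Smim36) to 17 (Wscd2 and Tmem44). Pcdhgb4 shares part of its transcript with other genes of the gamma-protocadherin cluster (46.5% of it with Pcdhga12).

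The genes called in the pooled comparison were then followed in each duplication genotype. The Dp1Tyb and Dp1TybDyrk1a+/+/- differences from WT share the same 10 WT hearts and are set side by side only as values. Among the 75 genes that rose, the median difference from WT was 0.158 in Dp1Tyb and 0.119 in Dp1TybDyrk1a+/+/- hearts, and among the 28 that fell it was -0.13 and -0.10. The Dp1Tyb mean was above the Dp1TybDyrk1a+/+/- mean in 62 of the 75 and below it in 17 of the 28. Dp1TybDyrk1a+/+/- hearts alone did not pass against WT for Rtp4 (limma, adjusted p = 0.108), Samd9l (0.0761), Ifi44 (0.270), Gbp6 (0.130) and Has2 (0.138). They passed for Vwf (0.000502), Entpd1 (3.62e-05) and Mal (0.000378), and other named genes fell on either side. With 5 hearts, a gene that did not pass is not shown to be unchanged. Tested directly, 176 genes outside the stretch differed between the 2 duplication genotypes (1.17%), and 1 of them, Pcsk6, was among the 103. At an unadjusted p under 0.05 in the same contrast, 19 of the 103 differed, and the share over all genes at that mark was not counted. The count of 176 was not stable: it was 11 with Xist and 28 with lane as a covariate, 598 without both hearts that stood apart, 1231 with array weights, and 29 (without Dp1Tyb replicate 3) to 400 (without WT replicate 6) with single hearts left out. Pcsk6, a proprotein convertase gene whose product activates secreted growth factors, was 8.72 to 8.83 in WT hearts, 9.08, 8.98, 9.04, 9.0 and 9.03 in Dp1Tyb hearts and 8.96, 8.83, 8.98, 8.88 and 8.83 in Dp1TybDyrk1a+/+/- hearts. It was higher than WT by 0.24 in Dp1Tyb and by 0.11 in Dp1TybDyrk1a+/+/- hearts, a difference of 0.13 between them (adjusted p = 0.0490). The direct difference of Pcsk6 was called in 7 of 30 alternative settings, with adjusted p from 0.0266 to 0.186, and was lost with lane or Xist as a covariate. In 8 of 10 duplication hearts it was above every WT heart. For Vwf the direct difference was 0.15 (adjusted p = 0.177), with an interval of plus or minus 2 standard errors from 0.033 to 0.264, and for Entpd1 0.02 with an interval from -0.047 to 0.091. Neither passed the threshold, which does not show that the genotypes were alike.

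**Figure D4:**
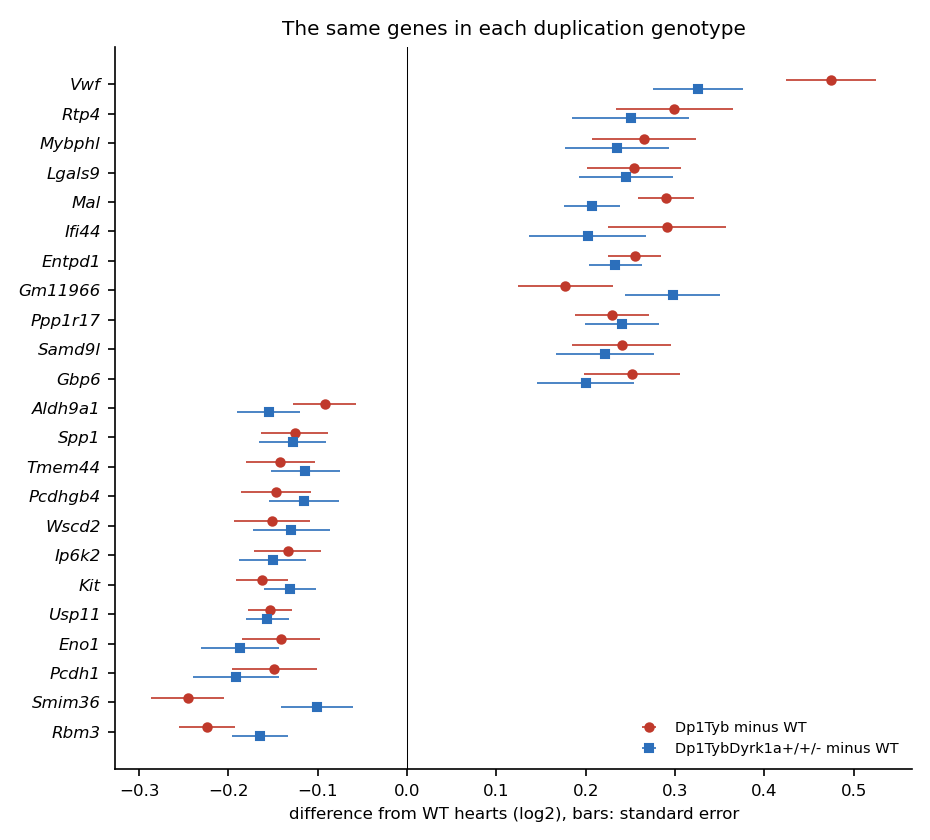
Difference from the 10 WT hearts (horizontal axis, log2, with standard errors) of 23 called genes (vertical axis) in the 5 Dp1Tyb hearts (red circles) and the 5 Dp1TybDyrk1a+/+/- hearts (blue squares). For each gene both points lie on the same side of 0, which choosing genes by the pooled difference largely fixes, and both are measured against the same WT hearts.

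Cell division genes gave no call in the pooled comparison, which called 0.683% of all genes tested outside the stretch. Lists of this size would often hold none at that share. Of 75 tested mitosis genes 71 were below 0 with a median of -0.0388, of 54 DNA replication genes 44 (median -0.0356), and of 19 E2F, pocket protein and DREAM genes 15 (median -0.0294). The median of the mitosis genes was -0.0946 in Dp1Tyb and 0.0188 in Dp1TybDyrk1a+/+/- hearts. In the direct test, which called 1.17% of genes outside the stretch, 22 of the 75 were lower in Dp1Tyb than in Dp1TybDyrk1a+/+/- hearts. That count was 2 with Xist and 3 with lane as a covariate, and 3 (without Dp1Tyb replicate 3) to 35 (without WT replicate 6) with single hearts left out. Mitochondrially encoded genes likewise had no pooled call among 13 (median 0.048), with -0.155 in Dp1Tyb and 0.243 in Dp1TybDyrk1a+/+/- hearts. Without Dp1TybDyrk1a+/+/- replicate 2 their pooled median was -0.0778 and 1 of 13 was above 0 instead of 11, and with lane as a covariate it was -0.0196, so the sign is not stable. Since each genotype has 5 hearts, a pooled difference is the mean of both genotype differences.

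No call was found in the lists of cell cycle regulators and chromosome structure: G1 cyclins, CDKs and CDK inhibitors (14 tested, median 0.00148), cohesin and meiotic chromosome genes (18, -0.0266), and HMGN and histone genes (17, -0.0199). The same was true of the lists for heart muscle and its regulators, namely cardiac transcription factors (34, 0.0158), cardiac ion channels and calcium handling genes (40, -0.00447), and calcineurin and NFAT genes (20, 7.39e-05). Extracellular matrix genes (65, 0.00912), epicardium genes (15, 0.0266), smooth muscle genes (18, -0.0249), Notch pathway genes (19, -0.0104) and Hedgehog pathway genes (17, -0.00325) had none. Neither had globin and erythroid genes (25, 0.0293), cytosolic ribosomal protein genes (77, 0.00807), imprinted genes (38, -0.00183), immediate early genes (26, -0.0094), hypoxia genes (24, 0.0161) or cholesterol synthesis genes (20, -0.0213). Rbm3 was the single call among 20 heat shock and cold-inducible genes (0.00261), where 0.683% of all genes tested outside the stretch were called. Without Dp1TybDyrk1a+/+/- replicate 2 the median changed sign for cardiac transcription factors (-0.00532), extracellular matrix genes (-0.0132), sarcomere genes (0.00578), immediate early genes (0.00311), p53 targets (0.00632) and calcineurin and NFAT genes (-0.00673).

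Genes next to the stretch were not called. The 5 tested genes nearest before Lipi were Robo2, Robo1, Gbe1, Cadm2 and Vgll3, with log2 differences from -0.02 to 0.03 and adjusted p of at least 0.918, and the nearest of them, the axon guidance receptor gene Robo2, lay 93 kb away. After Zbtb21 only B230307C23Rik was tested (0.02, adjusted p = 0.856). Of the 364 genes of chromosome 16 tested outside the stretch 3 were called (0.824%), near the 0.683% of all genes tested outside it. They were Rtp4, and with lower values Tmem44 and Kalrn (-0.12 ± 0.02, adjusted p = 0.000743).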

How the data were processed

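RNA of 20 E13.5 mouse hearts was sequenced as mRNA libraries. Per the submitters' processing notes, reads were handled with Trimmomatic 0.36, STAR 2.5.2a, RSEM 1.2.31 and DESeq2 on GRCm38; the strand setting is not given in the sources used here. The deposited values are log2 normalized read counts, made by the authors over all libraries together. The spread between hearts shrinks at low values, so differences of low genes are understated. Genes of the stretch rose by a median of 1.24-fold, less than the paper reported for them in Dp1Tyb hearts. Differences at higher levels may thus be understated too, and the reason was not tested. The deposited values hold no counts, so depth is unknown and no count test was run. Sums over markers and over Gm7334 with Btg3 are these values turned back from the log2 scale, so their ratios may be understated too. The table holds 48795 genes, of which 44565 matched GENCODE M39 (GRCm39) by identifier and gave names and the stretch on chromosome 16 from 75337402 to 97763836; gene coordinates in GRCm38 are RefSeq's, by symbol, except where GRCm39 is named. All 137 tested genes without a position were left out of the counts.

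Genes with a mean of at least log2(10) were tested with limma 3.58.1 (R 4.3.3; lmFit, eBayes with trend), 10 duplication against 10 WT hearts, with Benjamini-Hochberg adjustment over 15304 genes and a threshold of 0.05. A second fit with 1 mean per genotype gave the differences of each genotype and the direct contrast. The script was tested on simulated data. Named genes were the 12 largest increases and 12 largest decreases called, and up to 3 called genes of each list. Called genes that also differed between both duplication genotypes and up to 5 tested genes next to the stretch on each side were added. Dyrk1a, Xist and Ddx3y were added as checks. Any other gene in the text, such as Heph, Thbs4, Il33, Ufsp1 or Kalrn, was chosen after its values were seen, also where this is not marked. Such genes were not among the followed genes. The gene lists and members were chosen with earlier results of these data known. Alternatives were another filter, centering, quantile normalization, eBayes without trend or robust, array weights, lane and Xist covariates, a stricter threshold and each heart left out. Standard errors are limma's. Transcript copies were searched with blastn 2.17.0. The values of 1 called interferon-stimulated gene are not reported here.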

Additional observations from a re-analysis of the deposited data

Results flagged for a closer look

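In 7 of 99 groups of 5 or 10 hearts examined over the followed genes, the highest or lowest heart lay apart from the others of its group by Dixon's criterion; chance gives about 1 in 20 groups. WT replicate 6, which also stood apart over all genes, was the lowest WT heart for Vwf (9.92), the highest for Entpd1 (9.24) and the highest for Spp1 (5.35). Dp1TybDyrk1a+/+/- replicate 2, the other heart that stood apart over all genes, was the highest of its genotype for Pcdh1 (8.73) and the lowest for Ip6k2 (9.31). Dp1TybDyrk1a+/+/- replicate 5 was the lowest of its genotype for Gm7334 (8.85), and Dp1Tyb replicate 4 was the lowest of its genotype for Ache (7.92). Vwf, Entpd1, Gm7334, Ip6k2 and Ache were called with each of these hearts left out.

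Pcsk6 was the called gene whose difference from WT itself differed between the duplication genotypes, by 0.132 on the log2 scale between Dp1Tyb and Dp1TybDyrk1a+/+/- hearts (limma, adjusted p = 0.0490). The call was lost in 23 of 30 alternative settings, lane and Xist as covariates among them.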

How the results depend on the processing

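Of the 103 genes called, the count stayed within 1.5 times under another filter, centering, quantile normalization, eBayes without trend or robust, lane or Xist as a covariate and 1 mean per genotype (78 to 134). It became 459 (293 higher, 166 lower) with array weights, 330 (222 higher, 108 lower) without both hearts that stood apart, an alternative chosen after seeing the data, and 44 (38 higher, 6 lower) at an adjusted p under 0.01. With single hearts left out it ran from 69 to 268 (54 to 182 higher, 15 to 86 lower), highest without Dp1TybDyrk1a+/+/- replicate 2. The lower calls also fell to 15 without WT replicate 3 or Dp1Tyb replicate 5, 16 without Dp1Tyb replicate 4, 17 without WT replicate 7 and 18 without WT replicate 10. The number of called genes that differed between the duplication genotypes, 1, became 39 with array weights, 10 without both hearts, 3 with a mean count of at least 100 or without trend, and 0 with no filter, median centering, quantile normalization, robust eBayes, lane or Xist, and ran from 0 to 3 with single hearts left out. The cause was not tested. None of the followed genes reversed, including within lanes 3, 6 and 7. Smim36, Pcdh1, Wscd2, Pcdhgb4, Tmem44, Spp1 and Aldh9a1 lost their call in some settings. No paired analysis was possible because the labels give no litter and no shared replicate number. Lane and Xist level were not balanced over the genotypes, litters are not labelled, and depth is unknown.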

Other observations

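Other called genes, picked out after their values were seen, are given as values only. Several encode proteins of the lysosome and its enzyme targeting: Hexa, a subunit of beta-hexosaminidase, rose by 0.15 (adjusted p = 0.000224), Lgmn, the protease legumain, by 0.10 (adjusted p = 0.0152), Lipa, the acid lipase, by 0.08 (adjusted p = 0.0393), and Gnptg, a subunit of the enzyme that tags lysosomal enzymes with mannose 6-phosphate, by 0.09 (adjusted p = 0.0188). Hexa was 10.04 to 10.11 in WT hearts, 10.26, 10.31, 10.27, 10.28 and 10.25 in Dp1Tyb hearts and 10.23, 10.10, 10.18, 10.19 and 10.20 in Dp1TybDyrk1a+/+/- hearts, of which the lowest, 10.10, was replicate 2.

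S100a8 and S100a9, which encode the calprotectin subunits of neutrophils and lie beside each other on chromosome 3, were both low and both rose by 0.16 (adjusted p = 0.00582 and 0.00623). S100a8 was 4.07 to 4.16 in WT hearts, 4.20, 4.35, 4.51, 4.28 and 4.15 in Dp1Tyb hearts and 4.23, 4.18, 4.25, 4.24 and 4.34 in Dp1TybDyrk1a+/+/- hearts. Rnf17 (0.21, adjusted p = 0.000863) and Tdrkh (0.11, adjusted p = 0.0212), tudor-domain genes known from the germline piRNA pathway, rose as well.

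Integrin subunit genes Itgav (0.12, adjusted p = 0.0487) and Itgb8 (0.11, adjusted p = 0.00507), whose products pair as a receptor that activates latent TGF-beta, were both called higher.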
